A study of Mus musculus with 13 samples.

Results

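The 10 libraries described here are 5 pairs of an ATAC library and an mRNA library that carry the same title ending and come from the same cells. They are 10 of the 13 libraries of the series, and the other 3 are Omni-ATAC libraries, a benchmark without mRNA. All were made from mouse E14 embryonic stem cells, 1 cell line of 129/Ola background, kept in fetal bovine serum with leukemia inhibitory factor. Cells were made permeable with a mild detergent, open DNA was cut by the transposase Tn5, and polyadenylated RNA was then pulled from the lysate on oligo-dT beads while the cut DNA stayed behind. Experiment 1 gave pairs from 10000 and 20000 cells, and experiment 2, on another day per the series' design text, gave pairs from 5000, 10000 and 20000 cells. No cells were treated, so the 5 pairs differ by cell number and by experiment. The question for this design is how open chromatin at a gene relates to the amount of its mRNA when both are read from the same cells. Values for the 5 pairs are given in 1 order throughout: 10000 and 20000 cells of experiment 1, then 5000, 10000 and 20000 cells of experiment 2.

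ATAC peaks mark stretches of DNA that nucleosomes leave accessible to Tn5. Such stretches lie at promoters, where RNA polymerase II is loaded at the transcription start site (TSS), and at distal elements such as enhancers, which bind transcription factors and act on promoters from a distance. Most promoters of broadly expressed mammalian genes lie in CpG islands, which tend to stay free of nucleosomes, while many tissue-restricted genes have CpG-poor promoters. Embryonic stem cells transcribe pluripotency genes such as Pou5f1, Sox2 and Nanog, and hold regulators of later lineages silent, many of them under Polycomb repression at CpG islands. An mRNA level reflects stability as well as synthesis, and an accessible promoter can be poised without giving mRNA.

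The measures per gene were taken from each ATAC list. The first, promoter bp, is the number of bases within 1000 bp of the TSS that peaks cover. Distal peaks are those with no base within 1000 bp of any TSS, counted for the nearest TSS up to 100000 bp away. Expression is in CPM, counts scaled to the total count of the paired mRNA library. CPM is not corrected for transcript length, so levels are compared across genes in wide steps.

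Total counts of the 5 mRNA libraries ran from 13727122 to 20426252 over 24470 genes, of which 24457 are nuclear and are used below. The peak lists hold no height or score, so depth of the ATAC libraries is unknown. They differ in length, with 18877, 27016, 18637, 29870 and 49508 peaks that cover 1.39, 2.33, 1.40, 2.84 and 6.03 Mb. Between 31.6% and 45.8% of the peaks in a list have the shortest width of 9 bp, so a promoter value of 9 bp is a single such peak. All 8 embryonic stem cell markers exceeded a mean of 1 CPM, and their summed level was 2980 to 3223 CPM. Of 7 fibroblast markers, 1 (Thy1) exceeded a mean of 1 CPM and 2 (Col3a1 and Lum) had no count in any library. Their summed level was 31.4 and 34.9 CPM in experiment 1 against 7.54 to 10.0 CPM in experiment 2, nearly all of it Thy1 with 29.2, 33.9, 9.78, 6.77 and 7.05 CPM. The sum of 6 primitive endoderm markers, of which 2 exceeded a mean of 1 CPM and 0 lacked counts in all libraries, was 15.1 and 11.4 against 2.45 to 2.74 CPM, and that of 7 trophoblast markers (3 above 1 CPM) was 6.63 to 11.6 CPM. The labels give no culture or passage for a library, so spread between pairs may be technical in part.

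Promoter windows of 6 genes are shown because they span the combinations met below, from very high mRNA with little promoter signal to a wide promoter peak with almost no mRNA. Each runs 5′ to 3′ on the strand of the gene, from 250 bases before to 50 bases after the start in RefSeq (GRCm38.p6, the build of mm10), and capitals mark matches on either strand of the TATA box core TATAAA, of the NF-Y motif CCAAT or of the Sp1 core GGGCGG. Rps12 lies at chr10:23787160-23787459 (minus strand), Spag7 at chr11:70669367-70669666 (minus), Fth1 at chr19:9980350-9980649 (plus), BC031361 at chr16:38089211-38089510 (minus), Top2b at chr14:16364956-16365255 (plus) and Slc5a11 at chr7:123214616-123214915 (plus).
Rps12: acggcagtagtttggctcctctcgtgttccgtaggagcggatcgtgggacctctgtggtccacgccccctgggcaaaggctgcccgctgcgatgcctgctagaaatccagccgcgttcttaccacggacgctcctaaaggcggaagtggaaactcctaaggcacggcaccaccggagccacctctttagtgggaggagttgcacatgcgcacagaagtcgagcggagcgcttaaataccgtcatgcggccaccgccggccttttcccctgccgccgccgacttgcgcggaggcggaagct
Spag7: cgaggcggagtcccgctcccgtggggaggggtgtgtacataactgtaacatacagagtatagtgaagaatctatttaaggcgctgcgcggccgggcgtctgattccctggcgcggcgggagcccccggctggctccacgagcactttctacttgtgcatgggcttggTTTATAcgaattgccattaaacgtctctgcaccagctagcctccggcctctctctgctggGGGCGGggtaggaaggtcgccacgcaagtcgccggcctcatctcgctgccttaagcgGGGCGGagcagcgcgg
Fth1: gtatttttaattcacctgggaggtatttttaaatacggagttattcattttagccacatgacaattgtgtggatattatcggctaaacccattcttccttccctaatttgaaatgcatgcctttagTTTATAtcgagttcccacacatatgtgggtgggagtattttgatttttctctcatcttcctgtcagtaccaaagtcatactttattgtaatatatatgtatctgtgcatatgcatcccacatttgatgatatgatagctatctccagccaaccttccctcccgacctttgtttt
BC031361: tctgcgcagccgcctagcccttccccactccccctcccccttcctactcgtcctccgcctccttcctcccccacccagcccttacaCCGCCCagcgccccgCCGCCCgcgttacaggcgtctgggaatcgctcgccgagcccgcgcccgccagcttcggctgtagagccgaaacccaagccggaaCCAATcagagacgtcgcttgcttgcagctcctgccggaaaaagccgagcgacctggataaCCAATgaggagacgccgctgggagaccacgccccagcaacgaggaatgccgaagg
Top2b: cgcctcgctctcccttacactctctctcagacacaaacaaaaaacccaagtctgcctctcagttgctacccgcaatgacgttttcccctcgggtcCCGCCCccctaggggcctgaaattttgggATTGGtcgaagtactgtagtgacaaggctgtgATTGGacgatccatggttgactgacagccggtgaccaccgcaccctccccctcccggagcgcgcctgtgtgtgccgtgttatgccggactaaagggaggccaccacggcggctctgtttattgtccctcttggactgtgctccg
Slc5a11: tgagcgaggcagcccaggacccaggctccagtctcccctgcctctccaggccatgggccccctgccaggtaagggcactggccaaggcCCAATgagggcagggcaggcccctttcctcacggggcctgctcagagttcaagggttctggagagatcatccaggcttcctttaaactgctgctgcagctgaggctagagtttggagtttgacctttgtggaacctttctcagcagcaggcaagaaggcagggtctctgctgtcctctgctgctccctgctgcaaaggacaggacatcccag
Rps12, the gene with the highest mean CPM, has 29 CpG in this window and none of the 3 motifs, while BC031361, a long non-coding RNA gene, has 30 CpG with 2 CCAAT and 2 GGGCGG matches. The window at the annotated start of Fth1, where no list had a peak, holds 4 CpG and a TATAAA match, and that of Slc5a11 holds 2 CpG and a CCAAT match. Spag7 has 27 CpG, a TATAAA and 2 GGGCGG matches, and Top2b has 18 CpG, 2 CCAAT matches and 1 GGGCGG match. Over 17328 genes with a RefSeq window, 13.3% of windows hold TATAAA, 39.4% CCAAT and 46.5% GGGCGG.

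Genes with more mRNA had a promoter peak more often, and most of that gradient lay between genes without mRNA and genes of about 10 CPM. Among genes without a count, 7.95% ± 2.01 (SD, n = 5 pairs) had a promoter peak. The share was 27.1% ± 6.96 for genes above 0 and under 1 CPM, 55.4% ± 12.1 from 1 to under 10 CPM, 71.7% ± 11.4 from 10 to under 100 CPM and 76.3% ± 10.98 from 100 to under 1000 CPM. Each of these 4 steps went up in all 5 pairs, and the 95% Wilson intervals of neighbouring levels were apart in all 5 pairs for the first 3 steps and in 4 pairs for the last. The shares were highest in the pair with the most peaks, 20000 cells of experiment 2, at 11.5%, 39.1%, 74.6%, 88.7% and 92.1%. A gene without a count could still have up to 0.147 to 0.219 CPM, the value of 3 counts, and 13.3% ± 1.8 of genes at this level are microRNA genes, whose products oligo-dT beads do not capture well.

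**Figure D1:**
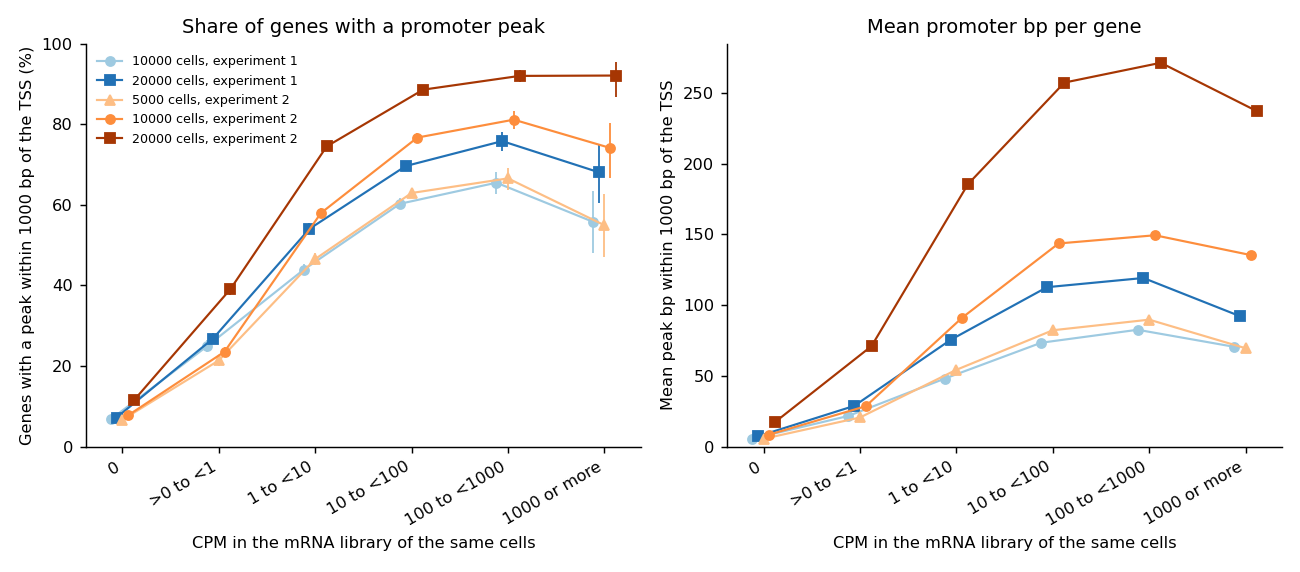
Share of genes with a promoter peak (left, %, bars are 95% Wilson intervals) and mean promoter bp per gene (right) by CPM in the mRNA library of the same cells, with 1 line for each of the 5 pairs. The lines climb to the level of 100 to under 1000 CPM, where the mean over pairs is 76.3%, and at 1000 CPM or more the promoter bp are lower in all 5 pairs.

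The most abundant mRNAs had less promoter coverage than the level below them, by an amount that differed between lists. At 1000 CPM or more, a level of 151 to 157 genes, the share with a promoter peak was 69.1% ± 15.3, lower than at 100 to under 1000 CPM in 4 of 5 pairs by a mean over all 5 of 7.2 percentage points, with intervals apart in 1 pair. In the pair with the most peaks the shares were 92.2% and 92.1%. Against the mean mRNA of the 5 libraries, the shares were 32.9% and 42.0% in the Omni-ATAC list of 5000 cells. They were 64.5% and 80.1% in that of 10000 cells, and 97.4% and 97.6% in that of 50000 cells, the longest list. Mean promoter bp were lower than at the level before in all 5 pairs, 120.8 ± 70.1 against 142.3 ± 76.7. When genes of at least 1 CPM were ranked into 10 bins of equal size, the share was 44.5% ± 11.2 in the lowest (median 1.35 CPM), 66.9% ± 12.5 in the fifth (10.6 CPM), 76.3% ± 10.3 in the ninth (78.1 CPM) and 75.3% ± 11.3 in the highest (240.0 CPM).

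Across genes, Spearman's rho of promoter bp and CPM was 0.559 ± 0.0602 (n = 5 pairs, 0.498 to 0.652) over all nuclear genes, which share a library and are not independent replicates. It was 0.385 ± 0.0815 over genes with a count, 0.214 ± 0.0221 at 1 CPM or more, 0.0631 ± 0.00535 at 10 CPM or more and -0.0234 ± 0.0230 at 100 CPM or more. Where a promoter peak was present, the width it covered carried little further relation, with rho 0.0847 ± 0.0256 at 1 CPM or more and 0.0162 ± 0.0105 at 10 CPM or more. Most of the relation thus lies at the low end of expression in these lists, and little of it among genes of 10 CPM or more.

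How many of the 5 lists held a promoter peak was graded too. The 11581 genes without one in any list had a median of 0.0387 CPM (mean over libraries), and 15.4% reached 1 CPM. With a peak in 1, 2, 3 and 4 lists the medians were 1.42, 3.66, 6.06 and 8.02 CPM, and with a peak in all 5 lists (5719 genes) the median was 13.3 CPM, with 85.1% at 1 CPM or more. At the other end, 10.3% of the genes with a peak in all 5 lists stayed under 1 CPM in all 5 libraries.

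Ribosomal protein genes show the upper end. The 10 nuclear genes with the highest mean CPM all encode ribosomal proteins, and their promoter bp differed widely. Rps12 had 12590, 13600, 13810, 13250 and 11500 CPM with 0, 0, 0, 9 and 61 promoter bp. Rpl37 had 8743, 9065, 9246, 9051 and 8282 CPM with 268, 341, 338, 391 and 425 bp, covered in every list. Rps29 had 103, 248, 188, 534 and 703 bp at 12350 ± 1428 CPM. Rps12 and Rpl37 thus have mRNA of the same order, and their promoter bp do not overlap. The longer Omni-ATAC list from 50000 cells held 247 bp at Rps12 and 773 bp at Rpl37. Ribosomal protein genes have many processed pseudogenes, and how reads that match several places were treated is not given in the sources used here, so their CPM and the peaks near them are uncertain.

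The 5 genes with the highest mean CPM among those without promoter bp in any list were Rpl8 at 5616 ± 287.8 CPM, Fth1 (ferritin heavy chain, which stores iron) at 4461 ± 802, Cox6c at 3156 ± 620 and Cox4i1 at 2519 ± 434 (both subunits of cytochrome c oxidase), and Rps15 at 3088 ± 156. The TSS is the outermost 5′ end of a gene in the count table, and for some of these the nearest peak lay just outside the window. For Fth1 it was 1930, 1950, 1934, 1934 and 1853 bp from the TSS, a nearly constant distance, and with a window of 2500 bp its promoter bp became 179.4. Whether the annotated start of Fth1 is the one used in these cells was not tested. For Cox4i1 it was 1917, 2009, 1905, 1905 and 1426 bp away, and the wider window gave 58.6 bp. Rpl8 stayed at 0 with the wider window, since its nearest peaks were 3155 to 4189 bp away. Rps15 had its nearest peak at 1202 to 27617 bp. The longer Omni-ATAC list from 50000 cells held promoter bp of 219 at Rps15, 175 at Cox4i1, 160 at Cox6c and 37 at Rpl8. Fth1 had 0 there. A value of 0 in the 5 shorter lists thus does not show a closed promoter.

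Genes with the widest promoter coverage ranged from under 1 CPM to over 100 CPM in mean mRNA. Spag7, shown above, had 735, 742, 737, 832 and 1084 bp with 135.9, 119.7, 157.9, 137.4 and 155.0 CPM. Tarbp2, a partner of Dicer in microRNA processing, had 892, 662, 593, 838 and 948 bp at 63.2 ± 12.8 CPM. Pkd1, which encodes polycystin-1, had 465, 693, 447, 967 and 1196 bp and 0.656, 1.00, 0.418, 2.58 and 2.15 CPM. Several of the widest windows are shared by 2 divergent genes. Hnrnpul2 (53.2 ± 12.2 CPM) and Ttc9c (20.6 ± 2.53 CPM) hold the same 748, 901, 542, 754 and 965 bp, and Izumo4 (0.650 ± 0.706 CPM) holds the same 721, 702, 572, 921 and 921 bp as its neighbour Mob3a (13.7 ± 3.59 CPM). Peaks in such a window cannot be assigned to 1 of the genes. Pisd-ps3 had the largest mean, 1722 bp, but lies on an unplaced contig where repeats can gather reads.

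Some genes had wide promoter peaks in every list while their mRNA stayed under 1 CPM in every library. Whether another gene starts within these windows is not given here, and peaks in a shared window cannot be assigned to 1 gene. BC031361 had 660, 708, 525, 713 and 834 bp with 0, 2, 0, 14 and 1 counts. 4932412D23Rik had 408, 704, 582, 808 and 851 bp at 0.0227 ± 0.0316 CPM. Rab39, which encodes a small GTPase of membrane traffic, had 448, 582, 446, 739 and 828 bp at 0.360 ± 0.359 CPM. Rnu2-10, a gene of the U2 small nuclear RNA, and Scarna17, of a Cajal body RNA, had means of 617.4 and 578.6 bp. Their RNAs carry no poly(A) tail in general, and oligo-dT beads select for that tail.

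CpG content of the promoter window ordered both layers. By the observed over expected CpG ratio, 8397 genes were CpG-rich (0.6 or more), 3437 intermediate and 5494 CpG-poor (under 0.3). A promoter peak was present at 67.8% ± 11.9 of CpG-rich, 33.4% ± 8.86 of intermediate and 4.94% ± 1.92 of CpG-poor genes, and the median CPM was 9.72 ± 0.405, 0.425 ± 0.111 and 0. The ratio itself had rho 0.632 ± 0.00927 with CPM and 0.539 ± 0.0657 with promoter bp. The relation of promoter bp and CPM remained within each class: rho was 0.264 ± 0.0265 in CpG-rich, 0.496 ± 0.0546 in intermediate and 0.288 ± 0.0318 in CpG-poor genes, and 0.126 ± 0.00994, 0.215 ± 0.0338 and 0.173 ± 0.0272 at 1 CPM or more.

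At the same mRNA level, CpG-rich promoters had a peak more often than CpG-poor ones in all 5 pairs at each level up to 100 to under 1000 CPM. Without a count the shares were 38.0% ± 12.0 in CpG-rich and 1.26% ± 0.593 in CpG-poor genes, from 1 to under 10 CPM 67.7% ± 12.7 and 19.2% ± 7.73, and from 10 to under 100 CPM 76.8% ± 10.9 and 33.3% ± 8.98. CpG-poor genes of 100 to under 1000 CPM number 25 or 26 in a pair and had a peak in 25.8% ± 9.10. Of the motifs, CCAAT, the sequence bound by the factor NF-Y, went with more peaks in all 5 pairs at each level above 0 CPM: from 100 to under 1000 CPM 85.1% ± 6.55 of windows with it had a peak and 71.1% ± 14.2 of those without. Without a count the shares were 7.12% ± 1.39 and 7.48% ± 2.30, lower with CCAAT in 3 of 5 pairs. TATAAA windows had a peak less often in all 5 pairs at each level under 1000 CPM, as from 1 to under 10 CPM (39.7% ± 12.0 against 59.3% ± 12.3 without). From 1000 CPM the shares were 74.3% ± 10.5 over 15 or 16 genes with TATAAA and 68.9% ± 15.7 without. Windows with TATAAA are CpG-rich in 21.9% and those without it in 52.6%, and shares within a CpG class are not given. GGGCGG, the core of Sp1 sites, overlaps with CpG content by its letters, and windows with it had a peak in 62.4% ± 11.3 against 22.5% ± 5.37 over all levels. A match is a description of the letters and was not tested as a site.

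Distal peaks were related to expression mainly between genes with and without mRNA. Genes without a count had 0.375 ± 0.197 distal peaks each, and the mean was 0.626 ± 0.321, 0.819 ± 0.429, 0.872 ± 0.425, 0.795 ± 0.370 and 0.918 ± 0.460 at the levels that follow. The first 3 steps were upward in 5 of 5 pairs, the step to 100 to under 1000 CPM was downward in 5 of 5, and the last was upward in 5 of 5. The rank correlation with CPM was 0.177 ± 0.0221 over all nuclear genes, 0.0528 ± 0.0200 over genes with a count and -0.00381 ± 0.0122 at 1 CPM or more, where it was above 0 in 2 of 5 pairs. Its sign there depended on how peaks were assigned: counting every distal peak within 50000 bp of a TSS gave 0.101, and assigning to the nearest TSS within 50000 bp gave 0.0119.

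**Figure D2:**
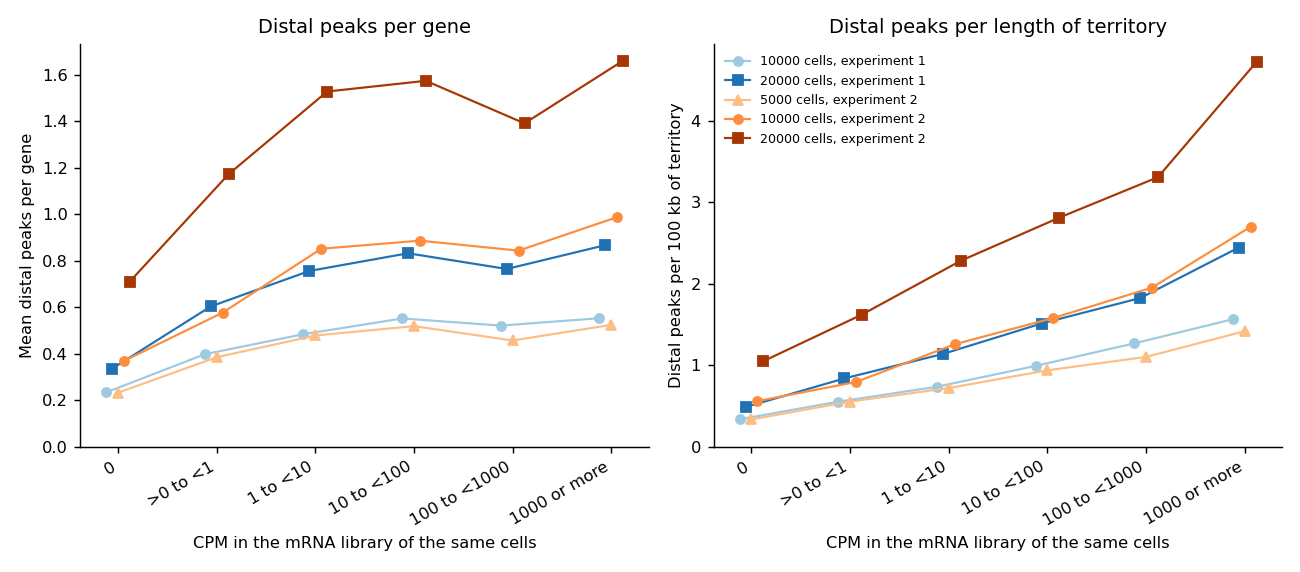
Distal peaks per gene (left) and per 100 kb of the genome nearest to the gene's TSS (right) by CPM in the mRNA library of the same cells, 1 line for each of the 5 pairs. Per gene the mean is between 0.795 and 0.918 over the 4 levels from 1 CPM upward, while per length it goes up at every step in every pair.

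Highly expressed genes sat closer to other genes. The territory of a gene, the stretch nearest to its TSS and at most 100 kb to each side, had a median of 46.0 kb at 0 counts, 50.0 kb from 1 to under 10 CPM, 27.7 kb from 100 to under 1000 CPM and 18.2 kb at 1000 CPM or more. Per 100 kb of territory, summed over the genes of a level, distal peaks were 0.551 ± 0.294, 0.871 ± 0.440, 1.23 ± 0.637, 1.57 ± 0.756, 1.89 ± 0.871 and 2.57 ± 1.33 from the lowest to the highest level, upward at each of the 5 steps in all 5 pairs. Gene by gene the relation stayed weak: rho per 100 kb was 0.187 ± 0.0296 over all nuclear genes and 0.0193 ± 0.00796 at 1 CPM or more.

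Without a promoter peak, distal peaks went with more mRNA. Genes with neither kind of peak had a median of 0 CPM, and 20.1% ± 7.21 of them reached 1 CPM. With distal peaks alone the median was 0.431 ± 0.225 CPM and 39.0% ± 8.68 reached 1 CPM. With a promoter peak alone the median was 9.74 ± 1.08 CPM and 78.8% ± 2.73 reached 1 CPM, and with both it was 11.2 ± 1.49 CPM and 82.8% ± 3.10. The rank correlation of distal peaks and CPM was 0.247 ± 0.0442 over genes without a promoter peak and 0.0441 ± 0.00712 over genes with one. Among genes of at least 1 CPM the medians differed more by promoter peak than by distal peaks. Without and with distal peaks they were 7.09 and 7.56 CPM without a promoter peak and 17.4 and 17.1 CPM with one. Without a promoter peak, the median with distal peaks was in no pair below that without them. CpG-poor genes stood apart in rho: distal peaks had 0.182 ± 0.0325 at 1 CPM or more in that class, above 0 in 5 of 5 pairs, and -0.0156 ± 0.0166 in CpG-rich genes. Those 2 ranges, 0.152 to 0.237 and -0.0369 to 0.00954, do not overlap.

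The genes with the most distal peaks mixed expressed genes and repeat-like places. Pisd-ps3 had 66 to 97 distal peaks on its unplaced contig, and Mir101c had 50 to 53 on chromosome 9. Retreg1 had 7, 12, 7, 10 and 19 at 1.84 ± 1.303 CPM. Tns3, which encodes the focal adhesion protein tensin-3, had 7, 11, 7, 13 and 17 at 71.7 ± 11.3 CPM with no promoter bp in 4 lists. Ier2, an immediate early gene, had 4, 9, 8, 13 and 19 at 128.4 ± 30.9 CPM. Irf2bpl had 6, 9, 8, 13 and 17, with promoter bp in every list and 33.5 ± 1.52 CPM.

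Pluripotency genes differed among themselves in distal peaks and at promoters. All 20 exceeded a mean of 1 CPM, and their median level was 148.1 ± 9.14 CPM. A promoter peak was present at 54.0% ± 19.2 of them in a list, against 76.3% ± 10.98 of all genes at 100 to under 1000 CPM. The 20 genes run from a mean of 9.22 CPM (Prdm14) to 1573 CPM (Dppa5a), so not all lie at that level. Of those with a RefSeq promoter window 46.2% are CpG-rich, against 87.05% of all genes at that level. The pluripotency genes had a mean of 3.29 ± 1.42 distal peaks, from a mean over lists of 0.6 in Dppa4 and Nr0b1 to 7.4 in Klf5, and 3.70 ± 1.60 per 100 kb of territory, beside 0.795 ± 0.370 and 1.89 ± 0.871 for all genes at 100 to under 1000 CPM. Per 100 kb, the 5 lists gave 2.48, 3.83, 2.19, 3.77 and 6.25 in pluripotency genes and 1.27, 1.82, 1.10, 1.95 and 3.31 in all genes at 100 to under 1000 CPM, so the pluripotency genes were higher within each of the 5 lists. This difference was not tested. Replication-dependent histones (3.43 ± 0.724) came next in mean and were above the pluripotency genes in 3 of the 5 lists, followed by immediate early genes (3.14 ± 1.46) and glycolysis genes (3.12 ± 1.36). All 20 had a distal peak in at least 1 list, 17 had a promoter peak in at least 1 list and 6 in all 5.

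**Figure D3:**
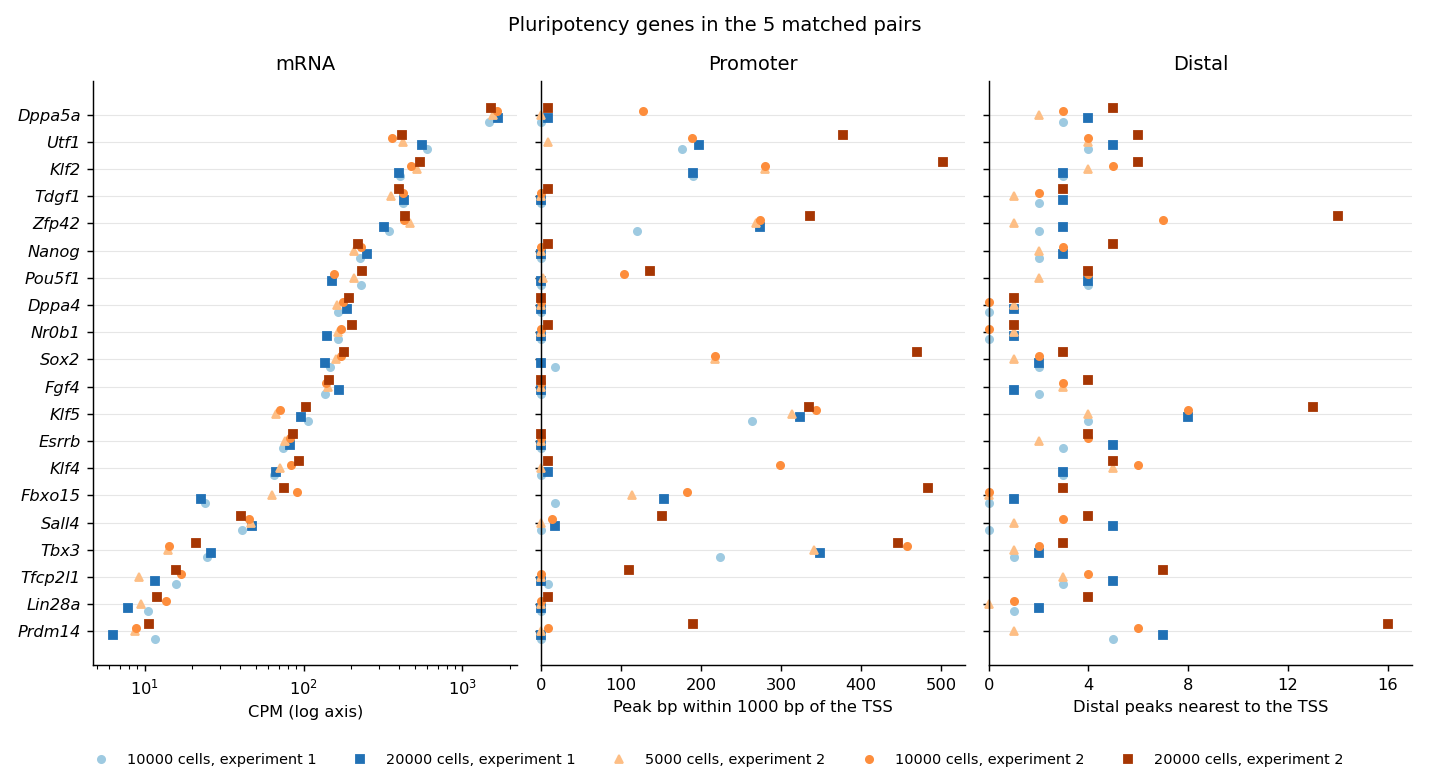
CPM (left, log axis), promoter bp (middle) and distal peaks (right) of the 20 pluripotency genes in the 5 pairs, ordered by mean CPM, with 1 point per pair. Esrrb, Dppa4 and Fgf4 are at 0 promoter bp in every list, whereas Klf5, Zfp42 and Tbx3 are above 100 bp in every list.

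Klf5, a Krüppel-like factor of the self-renewal network, had 264, 324, 314, 344 and 335 promoter bp and 4, 8, 4, 8 and 13 distal peaks at 88.8 ± 18.6 CPM. Zfp42 (Rex1), a marker of naive pluripotency, had 120, 274, 269, 274 and 336 bp with 343.8, 320.3, 466.3, 430.0 and 432.4 CPM. Tbx3 had 224, 349, 341, 458 and 446 bp at 20.0 ± 5.75 CPM, less mRNA than most of the list and the largest mean promoter bp in it. Klf2 had 190, 190, 280, 280 and 503 bp at 468.8 ± 64.4 CPM. These 4 promoters were covered in every list, at mean levels from 20.0 to 468.8 CPM.

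Other core genes had mRNA with little or no promoter coverage in these 5 lists. In the longer Omni-ATAC list from 50000 cells the same windows held 290 bp at Nanog, 121 at Fgf4, 98 at Dppa4, 84 at Tdgf1 and 0 at Esrrb, so a value of 0 in a short list does not show a closed promoter. Nanog had 226.6, 250.7, 207.2, 228.5 and 220.8 CPM, with 0 bp in 4 lists and 9 bp in the fifth, and 2, 3, 2, 3 and 5 distal peaks. Its nearest peak lay 4357, 4357, 4357, 4259 and 208 bp from the TSS, so 4 lists share a peak at almost the same distance. Tdgf1, the Nodal co-receptor, had 406.0 ± 30.4 CPM with 0 bp in 4 lists and 9 bp in the fifth, and 167.4 bp with the window of 2500 bp. Esrrb, an orphan nuclear receptor, had 80.2 ± 4.49 CPM and 3, 5, 2, 4 and 4 distal peaks, and its nearest peak lay 41837 to 41839 bp from the annotated TSS in all 5 lists. Fgf4, a growth factor that stem cells secrete, had 146.1 ± 12.5 CPM with its nearest peak 3038 to 3330 bp away. Dppa4 had 176.9 ± 13.2 CPM, no promoter bp and at most 1 distal peak.

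Pou5f1 (Oct4) had 0, 0, 3, 104 and 136 promoter bp at 229.5, 150.8, 207.5, 154.8 and 233.2 CPM, and 4, 4, 2, 4 and 4 distal peaks. Its promoter bp came from the edge of the window, with the nearest peak 865 to 1211 bp from the TSS, and the window of 2500 bp gave 223.6 bp. Pou5f1 has near-identical pseudogenes, so its CPM is uncertain. Sox2 had 17, 0, 217, 217 and 470 bp at 146.5, 137.3, 159.9, 172.1 and 179.0 CPM. The 2 pairs of experiment 1 were lower than the 3 of experiment 2 in both layers at Sox2, but its mRNA difference did not pass the test between experiments (edgeR, adjusted p = 0.0982).

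Lineage regulators, transcription factors of later cell types, had little mRNA, and some had promoter peaks. Of 25, 18 stayed under 1 CPM in all libraries, and 23.2% ± 12.5 had a promoter peak in a list. Among members under 1 CPM the share was 19.8% ± 11.3, beside 14.4% ± 4.84 of all nuclear genes under 1 CPM, and it was higher than in all such genes in 3 of the 5 lists. Of the regulators with a RefSeq promoter window, 71.4% are CpG-rich. Among all CpG-rich genes under 1 CPM the share with a promoter peak was 46.3% ± 12.7, above that of the regulators in each of the 5 lists. These differences were not tested. Mean distal peaks were 1.26 ± 0.832 (0.6 to 2.64 by pair), beside 0.626 ± 0.321 (0.384 to 1.17) for all genes above 0 and under 1 CPM, and they were higher in the regulators within each of the 5 lists, a difference that was not tested. The regulators also have longer territories, with a median of 100 kb against 52.1 kb. A distal peak was present in at least 1 list at 22 of the 25. Neurog1, a neural determination factor, had no count in any library and 0, 293, 9, 144 and 600 promoter bp. Sox1, a neural factor, had 4, 5, 4, 6 and 15 distal peaks at 2.995 ± 0.696 CPM. Gata4, Gata6, Sox17, T and Foxa2, which specify endoderm and mesoderm, were at 0 promoter bp in all 5 lists. Eomes had 9, 0, 2, 2 and 20 bp, and Mixl1 had 0, 216, 0, 18 and 44 bp. In all, 13 of the 25 regulators had no promoter peak in any list. The longer Omni-ATAC list from 50000 cells held 344 bp at Gata6, 167 at Gata4, 149 at Foxa2, 9 at T and 0 at Sox17. Between experiments Pax6, an eye and forebrain factor, was called higher in experiment 2 (0.146, 0, 5.55, 6.97 and 3.53 CPM, log2 fold change 6.08, edgeR adjusted p = 1.5e-05), with no promoter bp in any list. Gata6 was called lower (3.21, 1.47, 0, 0 and 0.294 CPM, log2 fold change -3.81, edgeR adjusted p = 0.013).

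Hox genes, which pattern the body axis, were similar: 36 of 39 stayed under 1 CPM, 14.4% ± 10.8 had a promoter peak and 25 had none in any list. Hoxc13 stood apart with 220, 287, 283, 297 and 315 bp at 0.246 CPM. Of 35 genes of differentiated tissues such as Alb, Des and Pecam1, 33 had no promoter peak in any list, and 3.43% ± 1.28 had one in a given list. Syn1, a synaptic vesicle gene, was the member with a peak in all 5 lists, with 354, 379, 236, 376 and 381 bp at 2.70 CPM. Des had 12.8 ± 3.16 CPM and Pecam1 6.13 ± 1.05 CPM with 0 promoter bp in every list.

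Housekeeping groups had promoter peaks at most of their genes on average. Replication licensing genes, which load the MCM helicase, had a promoter peak in 94.3% ± 5.22 at a median of 128.8 ± 10.7 CPM, and 18 of 21 had one in all 5 lists. Splicing factors had one in 79.5% ± 7.98 at nearly the same median, 127.4 ± 7.45 CPM. Nuclear genes of the respiratory chain were at 76.4% ± 9.83 (median 452.3 ± 24.6 CPM), proteasome genes at 70.3% ± 15.0 (267.3 ± 21.8 CPM) and glycolysis genes at 70.0% ± 15.6 (215.6 ± 22.5 CPM). Ribosomal protein genes had the highest median of the lists, 3457 ± 204 CPM, and a promoter peak in 65.1% ± 20.0, from 44.3% to 94.9% by pair. Within each of the 5 lists the share was highest in replication licensing genes among these 6 groups, while its ranges over pairs overlap between all 6. The difference between the groups was not tested. Mean promoter bp were 221.9 ± 97.9 in replication licensing genes and 86.8 ± 62.6 in ribosomal protein genes.

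**Figure D4:**
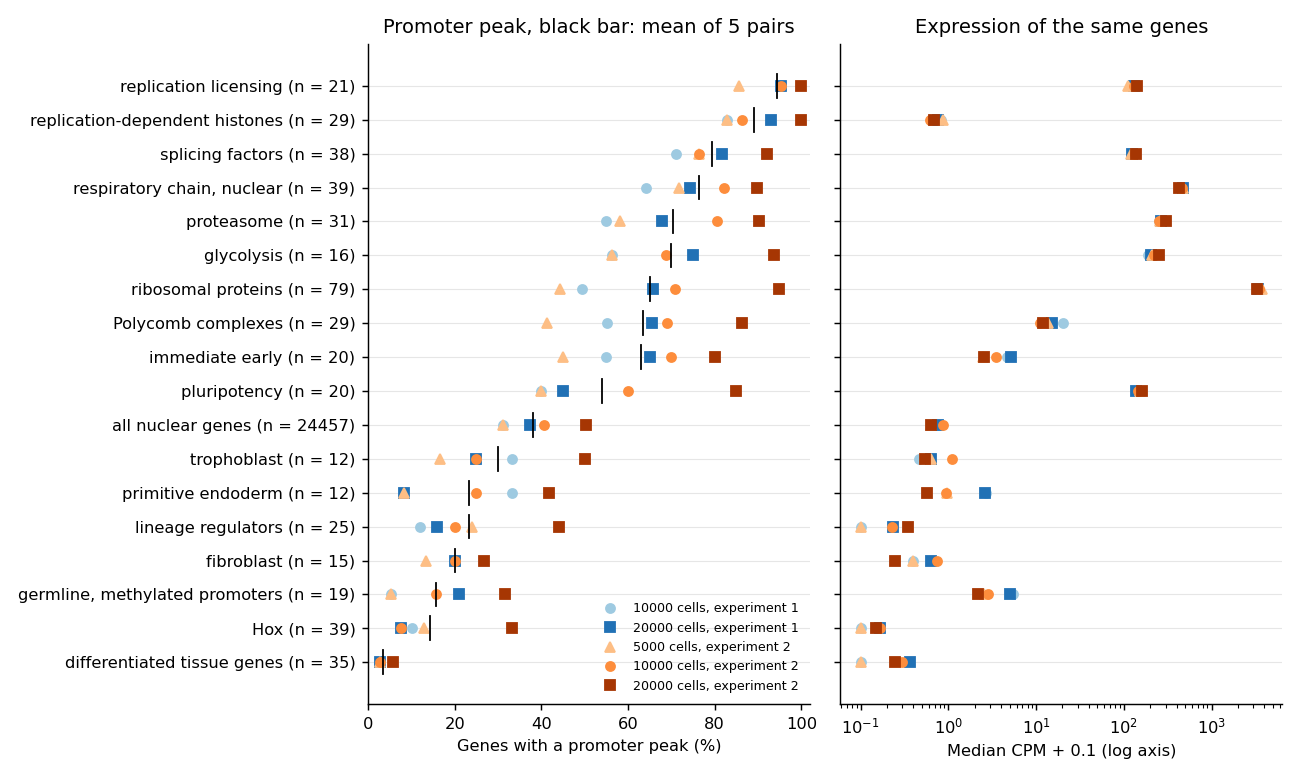
Share of genes with a promoter peak (left, black bar is the mean of 5 pairs) and median CPM + 0.1 (right, log axis) for 17 gene lists and all nuclear genes, with 1 point per pair. Replication-dependent histones have a promoter peak at 89.0% on average with a median under 1 CPM, and ribosomal protein genes 65.1% with a median of 3457 CPM.

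Within these groups single genes went both ways. Psmb3, a proteasome subunit, had 236, 252, 255, 264 and 295 bp at 990.3 ± 226 CPM, while Psma7 had 9, 9, 77, 0 and 67 bp at 750.3 ± 46.0 CPM. Atp5b, of the ATP synthase, had 289, 318, 303, 308 and 322 bp at 3197 ± 384 CPM. Ldha, lactate dehydrogenase A, had 9, 0, 0, 0 and 9 bp at 3708 ± 401 CPM. Pkm, pyruvate kinase, had 36, 379, 144, 580 and 603 bp at 2128 ± 242 CPM. Snrpb, a core spliceosome protein, had 9 bp in 2 lists and 0 in 3 at 1805 ± 101 CPM.

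Replication-dependent histone genes combined open promoters with low CPM. A promoter peak was present at 89.0% ± 7.48 of the 29 genes, with 210.4 ± 118 bp and a median of 0.655 ± 0.105 CPM. Their mRNAs end in a stem-loop in place of a poly(A) tail, so the oligo-dT beads used here capture them poorly and the CPM cannot be read as their transcription. H2bc4 had 451, 751, 383, 515 and 742 bp at 11.7 ± 1.43 CPM, and H2ac6 holds the same bp at 0.117 CPM. These genes lie close together, so windows are shared.

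The last lists lay between. Polycomb complex genes had a promoter peak in 63.5% ± 16.6, a median of 14.3 ± 3.54 CPM and 1.79 ± 0.903 distal peaks. Jarid2, which recruits the PRC2 complex, had 8.8 distal peaks on average at 85.7 CPM. Immediate early genes had a promoter peak in 63.0% ± 13.5 at a median of 3.58 ± 1.23 CPM, with 2.11 ± 0.979 distal peaks. Myc had 294, 438, 274, 492 and 837 promoter bp at 35.1 CPM, and Egr1 had 63, 399, 89, 196 and 641 bp at 1.45 CPM. Germline genes whose promoters are known for DNA methylation had a peak in 15.8% ± 11.2, none of 19 in all 5 lists, while 14 of them exceeded a mean of 1 CPM. Tuba3a had 47.9, 57.5, 9.01, 15.2 and 14.5 CPM with 0, 35, 0, 0 and 9 bp.

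Whether mRNA follows the ATAC list of the same cells more than the lists of other cells was tested on values centred per gene. Over 9716 genes whose mean reached 1 CPM and whose promoter held a peak in 1 list or more, rho of the deviations was 0.0638, 0.0859, -0.0279, 0.00831 and 0.0624 in the 5 matched pairs. The matched mean was 0.0385, and the mean over the 20 mismatched combinations was lower by 0.0492. An exact two-sided permutation test over the 120 arrangements gave p = 0.142, where 1 arrangement is a share of 0.00833. Mismatched combinations of the same experiment had a mean rho of 0.0334, and those of different experiments had -0.0401. Centred values of a gene sum to 0 over the 5 libraries, so positive values within an experiment entail negative ones between experiments, and the sign is not a result. Without centring the means were 0.125 for matched pairs, 0.130 for other combinations of the same experiment and 0.117 for those of different experiments, and matched exceeded mismatched combinations by 0.00297 (exact permutation p = 0.183). When arrangements were limited to those within each experiment (12 arrangements, smallest share 0.0833) the exact permutation p was 1.0. Matched pairs exceeded other combinations of the same experiment by 0.00507 with centring, and the direction turned without it. Thus a closer relation within the same cells than within the same experiment was not detectable here.

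**Figure D5:**
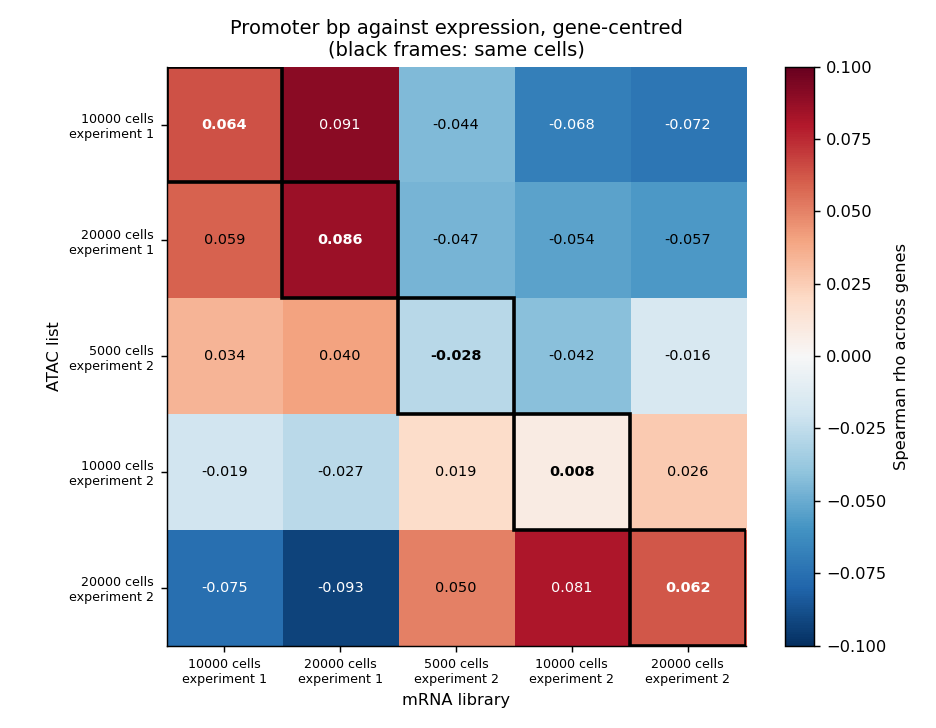
Spearman's rho across 9716 genes between gene-centred promoter bp of each ATAC list (rows) and gene-centred log2(CPM + 1) of each mRNA library (columns), with matched pairs framed. The 4 combinations within experiment 1 are between 0.0588 and 0.0905, and in the row of the list from 5000 cells the 3 combinations within experiment 2 are below 0.

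The 2 experiments differed in mRNA, which allowed changes in both layers to be set side by side. With the 4 libraries from 10000 and 20000 cells, edgeR's quasi-likelihood test called 1567 of 12523 genes (12.5%) at a Benjamini-Hochberg adjusted p under 0.05, 720 higher (5.75%) and 847 lower (6.76%) in experiment 2. Each count rests on 2 libraries against 2 and varied with the libraries used: without 10000 cells of experiment 1 the counts were 472 and 546, without 10000 cells of experiment 2 they were 393 and 410, and without 20000 cells of experiment 2 they were 352 and 517. The summed primitive endoderm markers and Thy1 were lower in experiment 2 (values above), and their part in these counts was not tested. Of the 7 genes tested in the longer fibroblast list 1 was called lower and 0 higher, and Fn1, its most abundant gene, had a log2 fold change of 0.24 (edgeR adjusted p = 0.216). Of 10 tested primitive endoderm genes 3 were called lower and 0 higher. In such bulk samples fewer cells of a type and less RNA per cell cannot be told apart.

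Promoter bp of the tested genes were higher in both experiment 2 lists than in both experiment 1 lists, without overlap, in 37.7% of 12510 nuclear genes, and lower in 0.352%. The experiment 2 lists hold more peaks at each of these cell numbers. Of 719 nuclear genes with higher mRNA, 341 (47.4%) had higher promoter bp and 0 lower. Of 845 with lower mRNA, 238 (28.2%) had higher promoter bp and 7 (0.828%) lower. With lists cut to their 18637 widest peaks the shares with higher promoter bp were 38.8%, 20.0% and, over all tested genes, 29.0%. In these cut lists lower promoter bp were more frequent than in the whole lists, at 5 of the genes with higher mRNA (0.695%), 18 of those with lower mRNA (2.13%) and 179 of all tested genes (1.43%). Across all 5 lists, 1558 of 24457 genes (6.37%) were higher and 53 (0.217%) lower in experiment 2 without overlap. These counts follow single lists: without the list of 5000 cells 5563 promoters were higher, without that of 20000 cells of experiment 1 3762 were, and lower promoters numbered 749 without 10000 cells and 226 without 20000 cells of experiment 1, and 83 without 10000 cells and 707 without 20000 cells of experiment 2. The rank correlation of the mRNA change and the change in mean promoter bp was 0.121 over 10260 genes. It was 0.0533 from the 10000-cell libraries alone and 0.106 from the 20000-cell libraries alone, and 0.0779 and 0.0925 when ATAC of one cell number was set against mRNA of the other.

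Chromosome 8 held many of the genes that were higher in both layers. Its 692 tested genes had a median log2 fold change of 0.46 in mRNA and higher promoter bp in 61.6%, and 142 of the 341 genes called higher with higher promoter bp lie on it. Without chromosome 8, 199 of 509 genes with higher mRNA (39.1%) had higher promoter bp, against 36.3% of all tested genes there. Between the changes, rho was then 0.0986. Chromosome 15 had a median log2 fold change of -0.29 and higher promoter bp in 28.9%, while the X chromosome had higher promoter bp in 27.5% with a median of 0.08, so the order of chromosomes differed between the layers.

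Of 561 genes called higher whose mean reached 10 CPM and whose CPM did not overlap between experiments in the 4 tested libraries, 112 (20.0%) had promoter bp higher in experiment 2 without overlap over all 5 lists. The same held for 13.1% of all 6473 tested genes with such a mean. Both shares include the genes of chromosome 8, and values without them are not given. Top2b, DNA topoisomerase II beta, had 5.90, 5.09, 14.2, 20.8 and 19.0 CPM and 171, 169, 243, 235 and 473 bp (log2 fold change 1.86 ± 0.24, SE, edgeR adjusted p = 7.3e-06). In Top2b experiment 2 lies above experiment 1 in mRNA and in promoter bp, with no overlap. Vps35, of the retromer that sorts endosomal cargo, had 137.1, 136.6, 247.9, 287.9 and 295.6 CPM and 203, 350, 435, 483 and 579 bp. Vps35 shares its window with the divergent Orc6, whose mRNA change did not pass the test (log2 fold change 0.09, edgeR adjusted p = 0.763). Herpud1 (endoplasmic reticulum stress) and Glg1 had log2 fold changes of 1.07 and 1.06. Vps35, Herpud1 and Glg1 lie on chromosome 8.

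Of 521 genes called lower by the same rule, 4 (0.768%) had lower promoter bp, beside 0.34% of the 6473 genes. Slc5a11, a sugar transporter gene, had 21.1, 18.2, 9.19, 11.6 and 10.3 CPM with 15, 9, 0, 0 and 0 bp, so its promoter difference rests on peaks of 9 and 15 bp, outside the window printed above. Amhr2, the receptor of anti-Müllerian hormone, had 9 bp in both experiment 1 lists and 0 in the others. Espl1, separase, had 235.9, 274.9, 129.8, 148.7 and 193.4 CPM with 213, 217, 194, 13 and 210 bp. Slc20a1, a phosphate transporter gene, had 65.6, 73.1, 43.4, 43.0 and 52.7 CPM with 299, 438, 250, 222 and 223 bp. The mRNA calls of these 4 genes, and that of Herpud1, were each lost when either of 2 libraries was left out.

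In the opposite direction, 50 of the 521 genes with lower mRNA (9.6%) had higher promoter bp, below the 13.1% of the 6473 genes, and 0 of the 561 with higher mRNA had lower promoter bp, beside 0.34%. Txnip, a thioredoxin-binding protein that limits glucose uptake, had 98.9, 84.6, 35.7, 37.0 and 36.1 CPM with 13, 0, 143, 190 and 219 bp (log2 fold change -1.33, edgeR adjusted p = 6.6e-07). Polr1has and Enc1 had log2 fold changes of -1.12 and -1.10 with 0 promoter bp in experiment 1 and 14, 134 and 445 bp (Polr1has) or 9, 9 and 37 bp (Enc1) in experiment 2. The difference at Enc1 thus rests on short peaks, and with peaks of at least 50 bp its mean promoter bp were 0. Among the pluripotency genes 4 of 20 were called higher and 1 lower, beside 5.75% and 6.76% of all tested genes. The 4 are Klf4, Zfp42, Klf2 and Fbxo15, of which Zfp42 and Klf2 (log2 fold changes 0.38 and 0.34) lie on chromosome 8, where the median over all tested genes was 0.46. Fbxo15, a target of Oct4 and Sox2, had 24.1, 22.6, 63.3, 91.5 and 75.8 CPM (log2 fold change 1.84, edgeR adjusted p = 1.4e-08) with 18, 154, 114, 182 and 484 bp, whose ranges overlap. Utf1 was lower (log2 fold change -0.57, edgeR adjusted p = 0.0014) with 176, 198, 9, 189 and 378 bp. Of 17 germline genes tested 9 were called lower (6.76% of all tested genes) and 0 higher (5.75%). Tuba3a is among the 9 (log2 fold change -1.83), and its near-identical copies make its count uncertain.

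The Omni-ATAC lists, which have no mRNA of their own, were set against the mean CPM of the 5 mRNA libraries. For promoter bp, rho was 0.383, 0.568 and 0.655 for 5000, 10000 and 50000 cells, and 0.507 to 0.648 for the 5 low-input lists against the same mean. At 10 CPM or more it was 0.0480, 0.0470 and -0.0110 for Omni-ATAC and 0.0516 to 0.0685 for the low-input lists. The Omni-ATAC lists hold 9097, 31207 and 95457 peaks, so list length differs between the protocols and no test was made with 1 library each.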

How the data were processed

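The authors deposited a table of gene counts, unnormalized whole numbers, for the 5 mRNA libraries, on mm10 per the submitters' processing notes. ATAC peaks were deposited as intervals without height or score. The submitters' processing notes name cutadapt, Bowtie2 2.1.0, SAMtools 1.3.1, Picard, bedtools 2.24.0, MACS2 2.1.1, STAR 2.5, featureCounts and Subread 1.5.0-p1, without role or order, and settings, strand use and multi-mapping are not given in the sources used here. CPM were computed here over each library's total count, which included 13 mitochondrial genes (1.62% to 2.22% of counts) that were left out afterwards. Of the table's genes, 24454 matched a RefSeq gene ID, and 17328 (70.9%) have a RefSeq promoter window whose start lies within 100 bp of the TSS.

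The experiment number marks a day per the series' design text. The difference between experiments measured with 10000 cells and that measured with 20000 cells had r = 0.563 in mRNA (11499 genes) and 0.239 in promoter bp (9693 genes). Between experiments edgeR 4.0.16 (R 4.3.3) was run with TMM, filterByExpr, glmQLFit and glmQLFTest, with a biological coefficient of variation of 17.1%. It was tested on simulated counts for this comparison: 35.5% of 2-fold changes (12516 genes) and 99.5% of 4-fold changes (12532 genes) were called. Every simulated gene had the same dispersion, so recovery in the data can differ from these shares. P-values measure the spread between these libraries, which may be technical. Wilson intervals (95%) and the floor of 3 counts cover counting error only. Centred values used log2(CPM + 1). No 2 mRNA libraries were alike within sampling noise (chi-square per gene of at least 10.3), and no column lay outside the samples (0).

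Named genes were the 10 highest by CPM, 10 by promoter bp, 5 highest without promoter bp, 5 widest promoters under 1 CPM, 8 by distal peaks, the pluripotency and lineage lists, 2 of each other list, and genes that differ in both layers between experiments. Of these the informative ones are given, some are not reported here, and Orc6, Hoxc13, Syn1, Jarid2, Myc, Egr1 and H2ac6 were named after their values were seen. The pairs, lists and tests were chosen with earlier results of these data known. Alternatives were other windows (500 and 2500 bp), peaks of at least 50 bp, the 18637 widest peaks, isolated TSS (20404 genes), Pearson correlation, other distal assignments, RLE, DESeq2 1.42.0, other filters, a block and leaving out each pair or library. Scripts used scipy 1.17.1, pandas 2.3.3, numpy 2.4.6 and matplotlib 3.10.9 in Python 3.11.15.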

Additional observations from a re-analysis of the deposited data

Results flagged for a closer look

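Of 41 values examined over the 5 pairs, 8 had 1 pair far from the other 4 by Dixon's criterion (critical value 0.71), which chance alone gives for about 1 in 20 values. In each of them the pair that stands apart is 20000 cells of experiment 2, whose list holds the most peaks (49508). At genes without a count, this pair had a promoter peak in 11.5% of genes, a mean of 17.3 promoter bp and 0.7097 distal peaks per gene. At genes above 0 and under 1 CPM it had a mean of 71.0 promoter bp and 1.17 distal peaks. A promoter peak was present in 33.3% of Hox genes and 5.71% of differentiated tissue genes in this pair. The rank correlation of distal peaks and CPM at 10 CPM or more was -0.0283 there. The part of list length in these values was not tested beyond the lists of equal length described for the processing.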

How the results depend on the processing

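Of the values that answer a comparison, 205 of those recomputed under an alternative kept their direction and their side of the threshold, 7 changed sign, 23 moved beyond the spread between pairs, and 17 counts were larger and 11 smaller by over 1.5 times. The cause was not tested. The 7 are all rho of distal peaks and CPM at 1 CPM or more (-0.00381): 0.0119 with the nearest TSS within 50000 bp, 0.101 with every distal peak within 50000 bp, 0.0151 with peaks of at least 50 bp, 0.00506 with the widest peaks in equal number, 0.0218 for isolated TSS, 0.0193 per 100 kb of territory and 0.000492 without 20000 cells of experiment 2 (leaving out each pair gave -0.00767 to 0.000492). Peaks of at least 50 bp moved rho of promoter bp to 0.444 over all genes, 0.178 at 1 CPM and 0.0526 at 10 CPM or more, that of distal peaks to 0.142, and the share with a promoter peak to 3.81% without a count, 48.6% from 10 to under 100 CPM and 46.3% from 1000 CPM, with 0.141 and 0.356 distal peaks at the levels 0 and 10 to under 100 CPM. Pearson's r was 0.377, 0.142 and 0.0262 at those 3 ranges. With isolated TSS rho was 0.0743 for promoter bp at 10 CPM or more and 0.226 for distal peaks, and 5.55% of genes without a count had a promoter peak, which was 5.79% with the widest peaks and 10.9% with the 2500 bp window (8.08% of CpG-poor genes). The 500 bp window gave 0.0701 at 10 CPM or more. With every distal peak within 50000 bp rho was 0.295, with 0.814 and 1.87 peaks at the levels 0 and 10 to under 100 CPM.

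Between experiments, a fold change of at least 2 left 234 genes higher and 378 lower, and leaving out each library gave 352 to 944 higher and 410 to 873 lower, where the lone library left in an arm is assumed to vary like the others. Promoters higher in experiment 2 numbered 965 with peaks of at least 50 bp and 5563 with the lists from 10000 and 20000 cells, and 1558 was the count over 5 lists, with 1588 to 5563 when each list was left out. Promoters lower numbered 183 with the widest peaks and 54 to 749 when each list was left out. Genes with mRNA and promoter both higher numbered 585 with 20000 cells alone and 199 without chromosome 8. Both lower were 4 with peaks of at least 50 bp, 18 with the widest peaks, and 97 and 54 with 10000 and 20000 cells alone. In the latter 2, lower mRNA with higher promoter bp numbered 360 and 504, and higher mRNA with lower promoter bp 39 and 25 (5 with the widest peaks). Between the changes, rho was 0.0533 with 10000 cells alone. With cell number as a replicate block edgeR called 824 genes higher and 941 lower, and the block changed no call of the genes named from both layers. DESeq2 called 549 and 578. The exact permutation p for matched pairs was 0.15 to 0.375 under the alternatives other than limiting it to arrangements within an experiment, and rho of matched minus mismatched combinations was 0.028 to 0.0782, or 0.00297 without centring. An alternative with CPM per kb of transcript was not run, since no lengths were used here. The values without chromosome 8, without microRNA genes, per 100 kb of territory and with ranks within each list were chosen after seeing the data.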

Other observations

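Genes also differed by type. A promoter peak was present at 42.0% ± 8.64 (SD, n = 5 pairs) of 20587 protein-coding genes, 22.7% ± 5.50 of 2114 long non-coding RNA genes, 11.2% ± 3.03 of 367 pseudogenes and 9.20% ± 3.02 of 1185 microRNA genes. At 1 CPM or more the shares were 65.5% ± 11.9 for protein-coding and 59.4% ± 10.6 for long non-coding RNA genes, whose ranges overlap, and 21.2% ± 5.23 for pseudogenes. Under 1 CPM they were 14.6% ± 5.16, 17.4% ± 5.07 and 8.54% ± 2.59. The rank correlation of promoter bp and CPM was 0.553 ± 0.0621 over protein-coding and 0.398 ± 0.0342 over long non-coding RNA genes. CpG-poor genes had 0.690 ± 0.358 distal peaks per 100 kb of territory and CpG-rich genes 1.15 ± 0.606. Genes with TATAAA in the window had 0.696 ± 0.365 and those without it 1.001 ± 0.524, and 21.9% and 52.6% of them are CpG-rich.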
